A study of Mus musculus with 8 samples.

Results

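The 10 genes described here encode cytokines that helper T cells make or respond to: Il2, Ifng, Tnf, Lta, Il4, Il13, Il10, Il6, Tgfb1 and Il17a. They were chosen by name from the 28239 gene symbols of the deposited table. Of the 10, 8 had at least 2 CPM (reads on the gene scaled to library size) in at least 4 libraries and were tested among 12700 genes, and Il13 and Il17a were not. The cells were naive CD4+ T cells taken from the spleens of C57BL/6 mice, either wild-type (WT) or Alox15-/-, the latter lacking the lipid-oxidizing enzyme ALOX15. The cells had been isolated by negative selection and cultured for 2 days with IL-2, TGF-β and beads carrying antibodies to CD3 and CD28, the conditions used to obtain regulatory T cells (Tregs). There were 4 libraries per label, and both labels shared the culture conditions. The methods describe young adult mice of both sexes and name different suppliers for the WT and the Alox15-/- animals, so genotype and supplier cannot be told apart. The study gives as many Alox15-/- mice for these data as there are libraries of that label, but the labels and methods do not say that each library came from a separate animal, so the p-values measure the spread between these libraries.

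Cytokine genes in T cells are transcribed within hours of T cell receptor signaling, under the control of NFAT, AP-1 and NF-κB together with a lineage factor such as T-bet, GATA3 or FOXP3. IL-2, IFN-γ, TNF and lymphotoxin-α are typical of activated T cells and of Th1 cells, IL-4 and IL-13 of Th2 cells and IL-17A of Th17 cells. IL-10 and TGF-β1 are the products most often linked with Tregs, in which FOXP3 represses Il2. TGF-β favors Treg differentiation, and IL-6 given together with TGF-β diverts naive cells toward Th17 cells. Many cytokine transcripts are short-lived because their 3′ untranslated regions (UTRs) carry AU-rich elements, built on the pentamer ATTTA, that recruit proteins of RNA decay. IL-2 and TGF-β protein were supplied in the medium here, and the counts speak of the cells' own transcripts.

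Total counts per library ranged from 3723151 to 9538962, and the biological coefficient of variation within a label was 14.5%. The targeted gene, Alox15 (GRCm38 chr11:70344152-70352031, minus strand), did not follow the labels. Its raw counts were 292, 255, 337 and 454 in the libraries labelled Alox15-/- and 12, 16, 77 and 43 in the WT libraries. At 67.2 ± 3.18 against 5.31 ± 3.61 CPM (mean ± SD, n = 4 each), it was higher by 3.65 on the log2 scale in the libraries labelled Alox15-/- (SE 0.30, edgeR quasi-likelihood test, adjusted p = 1.08e-05). The assay, massive analysis of cDNA ends (MACE), counts transcripts near their 3′ ends, and the sources do not say which part of the gene was deleted, so counts from outside the deleted part and an exchange of labels cannot be told apart here. Every direction below is that of the label, and an exchange would turn all of them.

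The labelled cell type was present by its markers, since all 10 T cell and all 10 Treg marker genes were detected. Foxp3 itself stood at 71.7, 95.5, 93.0 and 113.5 CPM in the libraries labelled Alox15-/- and at 109.3, 102, 195 and 93.4 CPM in the WT libraries, and these ranges overlapped (log2 difference -0.42, adjusted p = 0.655). RNA typical of other cells was also present. Erythroid markers summed to 919.7 to 3522 CPM under the Alox15-/- label and to 72.3 to 140.0 CPM in the WT libraries. Sums were also higher in every library labelled Alox15-/- than in any WT library for myeloid cells (45.6 to 344 against 10.9 to 21.4 CPM), mast cells and basophils (146 to 379 against 59.6 to 84.6 CPM), eosinophils (21.7 to 78.4 against 1.25 to 10.4 CPM) and natural killer and γδ T cells (119 to 272 against 44.9 to 69.5 CPM). Each of these 5 sums gave p = 0.0286 in an exact permutation test, the smallest value that 4 against 4 libraries can give. B cell sums (217 to 316 against 213 to 311 CPM, exact p = 1) overlapped between the labels, as did CD8 sums (12.1 to 21.9 against 21.5 to 31.8 CPM, exact p = 0.0857). In such bulk samples, fewer cells of a type and less RNA per cell cannot be told apart.

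One library stood apart for the cytokine genes. WT replicate 4 had the highest level of all 8 libraries in 4 of the 8 tested cytokine genes, against 17.9% of all genes tested. Its level was at least 3 times the median of the other WT libraries in 63 genes, or 0.496% of those tested, and Il2 and Tnf were among them. Results that rest on it are given with and without it.

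The AU-rich pentamer marks most of these transcripts. The 30-base stretches of the 3′ UTR holding the most pentamers are shown for the cytokines the results turn on, because the 3′ UTR is both the site of cytokine mRNA control and the part of the transcript the assay reads. They are from GENCODE M21 transcripts on GRCm38, written 5′ to 3′ with each ATTTA in capitals.
Il2 (chr3:37121040-37121069, minus strand): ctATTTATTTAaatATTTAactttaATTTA
Tnf (chr17:35199677-35199706, minus strand): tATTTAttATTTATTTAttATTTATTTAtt
Lta (chr17:35203408-35203437, minus strand): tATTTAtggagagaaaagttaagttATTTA
Ifng (chr10:118445332-118445361, plus strand): cctATTTAttaatATTTAaaactATTTAta
Il6 (chr5:30019684-30019713, plus strand): atttttaATTTAttgataATTTAaataagt
Il17a (chr1:20734203-20734232, plus strand): ATTTAtatgagctATTTAtgaatctATTTA
In the Tnf stretch the pentamers run into each other, whereas the 2 of Lta lie at its ends.

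Over the whole 3′ UTR, Tnf held 8 pentamers in 764 bases, and all 8 were part of the longer form TATTTAT. Il2 held 7 in 581 bases and Il17a 7 in 637 bases. Il6, Ifng and Il10 held 6 each, in 427, 631 and 706 bases. Among annotated 3′ UTRs at least as long, cut to the same length from the stop codon, as many or more pentamers were found in 0.372% for Il6, 0.418% for Il2, 0.422% for Tnf, 0.543% for Il17a, 1.11% for Ifng and 1.67% for Il10. Lta and Il13 held 3 each, which 11.8% and 18.5% of such 3′ UTRs matched or exceeded. Il4 held 2 in 104 bases, matched or exceeded by 1.57%, and Tgfb1 held 1 in 135 bases, matched or exceeded by 15.1%. Of the 21021 genes with an annotated 3′ UTR, 62.7% held at least 1 pentamer, with a median of 1.

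**Figure D1:**
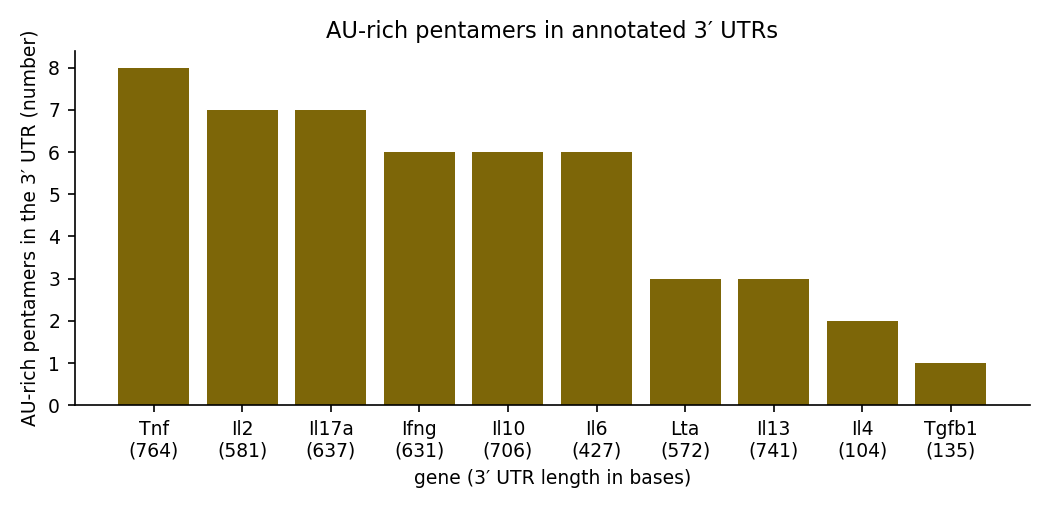
Number of ATTTA pentamers in the annotated 3′ UTR of each cytokine gene (bars, y axis from 0), with the 3′ UTR length in bases in brackets under the name. Tnf holds the most with 8, and Tgfb1 the fewest with 1.

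Promoters, from 250 bases before to 50 after the RefSeq start site (GRCm38.p6), were found for 9 of the 10 genes, all but Il10. Those of Il2 and Tnf are printed because their levels moved together, and that of Il6 because it was the member past the threshold. Capitals mark matches on either strand to GGAAA (the NFAT core), TGAGTCA (AP-1), GGG, any 2 bases and TTTCC (NF-κB, whose last letters are the reverse of the NFAT core) and TATAAA (the TATA box).
Il2 (chr3:37125905-37126204, minus strand): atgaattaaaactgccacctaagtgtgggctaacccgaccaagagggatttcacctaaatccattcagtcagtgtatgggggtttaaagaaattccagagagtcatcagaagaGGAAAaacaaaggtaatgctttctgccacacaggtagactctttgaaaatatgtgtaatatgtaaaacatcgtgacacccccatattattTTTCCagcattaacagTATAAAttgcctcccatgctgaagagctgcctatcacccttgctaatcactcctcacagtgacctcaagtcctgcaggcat
Tnf (chr17:35201958-35202257, minus strand): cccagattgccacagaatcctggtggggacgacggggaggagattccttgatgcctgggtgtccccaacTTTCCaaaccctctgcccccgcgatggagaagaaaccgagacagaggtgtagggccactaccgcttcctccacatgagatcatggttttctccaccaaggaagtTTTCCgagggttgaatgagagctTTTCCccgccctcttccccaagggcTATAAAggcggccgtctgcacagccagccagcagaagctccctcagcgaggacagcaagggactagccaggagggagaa
Il6 (chr5:30012864-30013163, plus strand): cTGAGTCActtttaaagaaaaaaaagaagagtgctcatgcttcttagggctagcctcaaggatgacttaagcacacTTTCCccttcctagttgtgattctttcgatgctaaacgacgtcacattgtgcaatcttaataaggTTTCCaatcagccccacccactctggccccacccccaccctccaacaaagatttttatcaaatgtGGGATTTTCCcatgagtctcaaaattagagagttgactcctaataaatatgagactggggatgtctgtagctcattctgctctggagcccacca
Il2 and Tnf shared the NFAT core and the TATA box, with 2 and 3 NFAT cores, whereas Il6 held 3 NFAT cores, 1 AP-1 and 1 NF-κB match and no TATA box match. Of 32851 promoters of this length, 61.3% held the NFAT core, 13.6% the TATA box, 5.20% the AP-1 and 1.63% the NF-κB letters.

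Lta and Tgfb1 supplied most of the cytokine RNA. Per kilobase of transcript, Lta averaged 294 CPM over the 8 libraries, Tgfb1 170.3, Il2 71.4, Tnf 33.3, Il10 13.0, Ifng 7.02, Il4 4.76, Il6 1.59, Il17a 1.40 and Il13 0.588. The assay counts transcript ends, and the order was the same without division by length. Lta and Tgfb1 together took 67.9% to 89.9% of the reads on the 10 genes, which in turn took 0.0768% to 0.141% of each library. Per kilobase, Lta and Tgfb1 did not overlap in range, but in CPM without division by length they did, Tgfb1 being above Lta in replicate 3 labelled Alox15-/- (416 against 371 CPM). Per kilobase, each later pair of neighbours in the order overlapped in range across the 8 libraries.

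Comparing the libraries labelled Alox15-/- with WT asks whether the label went with a different set of cytokine transcripts. Of the 8 tested cytokine genes, 1 rose (Il6) and 0 fell at an adjusted p under 0.05, beside 1.24% of all tested genes called, 1.05% higher and 0.197% lower. Il6 had entered the test only through the group in which it was high, so neither this count nor the next counts that include it are a comparison with the share over all genes. At an unadjusted p under 0.05 there were Il6 and 3 of the 7 others (Ifng and Il10 higher, Lta lower), beside 7.84% of all genes, 4.46% being higher. In Il10, and in Il6 after a filter that fixed its direction, every library labelled Alox15-/- lay above every WT library, a pattern found in 2.74% of all genes tested, with 2.51% separated in the other direction and 5.25% in either. The tested cytokine genes split evenly by sign, 4 above and 4 below 0, with a median log2 difference of -0.07 beside -0.01 over all genes.

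**Figure D2:**
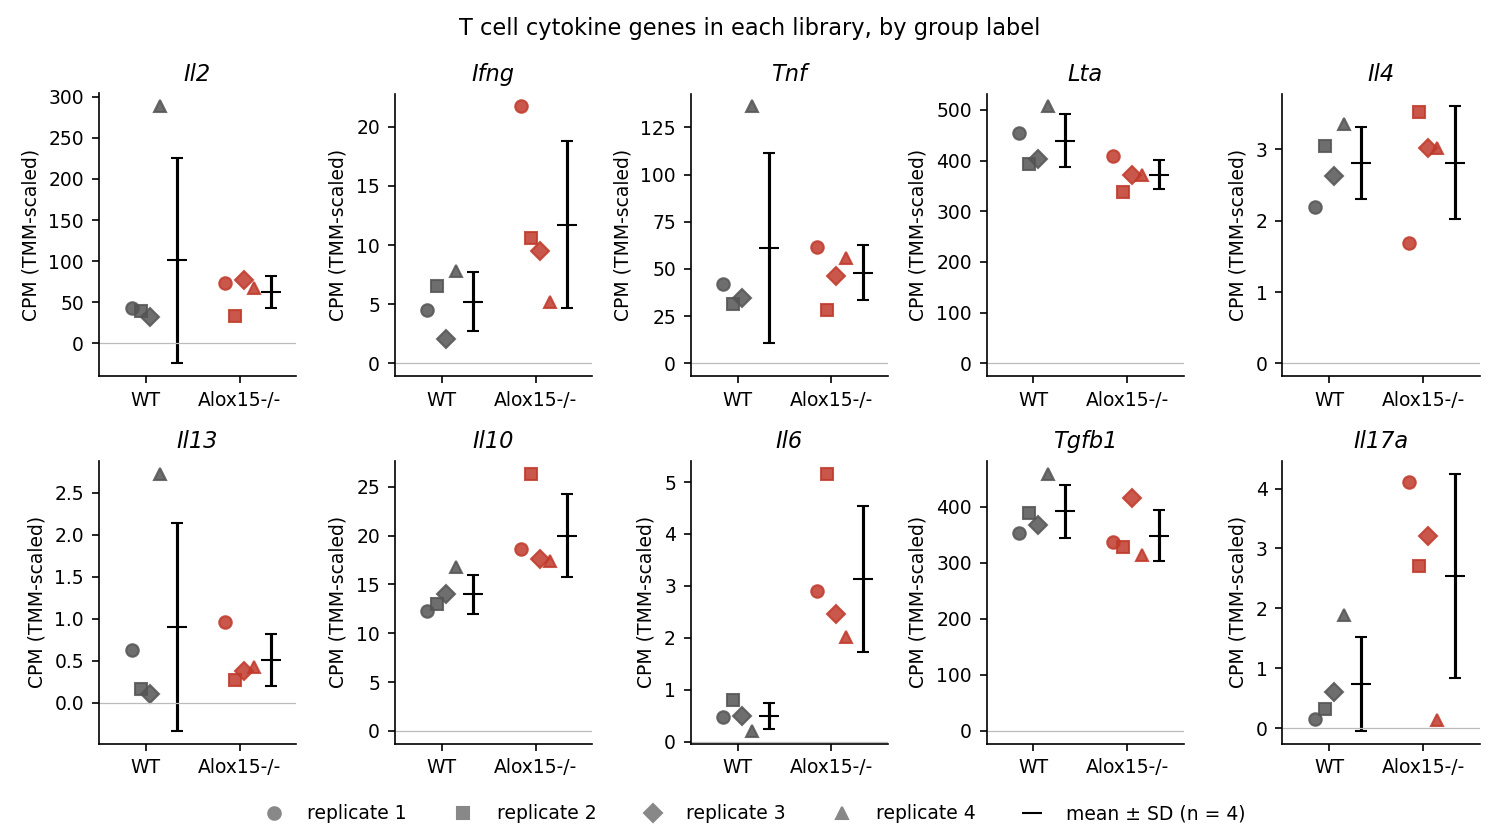
CPM of each cytokine gene in the 4 WT (grey) and 4 Alox15-/- labelled (red) libraries, one marker shape per replicate number, with the mean ± SD at the side of each group. Il6 and Il10 separate by label, and WT replicate 4 (triangle) lies far above the other WT libraries for Il2, at 288 CPM, and for Tnf, at 136 CPM.

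Il6 encodes a cytokine made mainly by myeloid and stromal cells, which is required with TGF-β for Th17 differentiation. Its raw counts were 12, 19, 13 and 14 in the libraries labelled Alox15-/- and 3, 5, 5 and 1 in the WT libraries. In CPM these were 2.90, 5.16, 2.46 and 2.01 against 0.470, 0.801, 0.504 and 0.210. The groups did not overlap, and the lowest library labelled Alox15-/- still lay above the highest WT library. The mean was 3.13 ± 1.40 against 0.496 ± 0.242 CPM (SD, n = 4 each), a log2 difference of 2.50 (SE 0.44, 95% interval 1.56 to 3.45) and an adjusted p of 0.00681 in edgeR's quasi-likelihood test. The result rests on 58 reads against 14. Il6 was at or above 2 CPM in exactly the 4 libraries labelled Alox15-/-. It passed the threshold in each of the 8 fits without 1 library, with log2 differences from 2.20 to 2.77, as long as the tested genes were held as they were. Without any 1 of the libraries labelled Alox15-/-, the filter applied anew would have left Il6 out.

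Il10 encodes an anti-inflammatory cytokine made by Tregs and many other leukocytes. Its levels were 18.6, 26.3, 17.6 and 17.4 CPM in the libraries labelled Alox15-/- and 12.2, 13.0, 14.0 and 16.8 CPM in the WT libraries. The groups did not overlap, but the gap between the lowest library labelled Alox15-/- and WT replicate 4 was narrow and replicate 2 labelled Alox15-/- stood above its own group. The means of 19.98 ± 4.27 and 14.0 ± 2.00 CPM gave a log2 difference of 0.50 (SE 0.17, 95% interval 0.13 to 0.87), which did not pass the threshold (edgeR quasi-likelihood, adjusted p = 0.358). The difference was 0.35 without replicate 2 labelled Alox15-/- and 0.60 without WT replicate 4.

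Il6 and Il10 are described beside the marker list of mast cells and basophils. All 12 genes of that list were listed, and 9 of them were higher in every library labelled Alox15-/- than in any WT library (2.74% of all genes tested). Mcpt4 was above 0 only in replicates 1 and 2 labelled Alox15-/-, at 0.483 and 0.814 CPM. Of the 9, Tpsb2 was not tested and Ms4a2, Cma1, Hdc and Prss34 were under 2 CPM in every WT library, so the filter fixed their direction and this count is no comparison with that share. The summed markers were 235, 379, 188 and 146 CPM in the libraries labelled Alox15-/-, in the same order of libraries as Il6 and as Il10. The WT sums of 59.6, 62.8, 66.6 and 84.6 CPM were in the order of Il10 but not of Il6. The sums of the myeloid list (8 of 16 genes separated by label) and the eosinophil list (5 of 9 genes) were also higher in every library labelled Alox15-/-. Of the separated genes, Lyz1, Itgam, Cebpa, Prg3, Ear1 and Ear6 were not tested, and S100a9 and Fcgr3 were under 2 CPM in every WT library. These counts too are no comparison with the 2.74% of all genes. Prg3, Ear2 and Ear6 were at 0 in all WT libraries. Ly6g was above 0 only in replicate 2 labelled Alox15-/-, at 0.271 CPM. The sums under the Alox15-/- label, 73.6, 344, 201 and 45.6 CPM for the myeloid and 45.9, 78.4, 66.4 and 21.7 CPM for the eosinophil list, put replicate 3 above replicate 1, unlike Il6 and Il10. Replicate 2 was highest in all of these lists. Among the other libraries of that label, Il6 ran from 2.01 to 2.90 CPM and Il10 from 17.4 to 18.6 CPM. These differences lie within counting error (coefficient of variation 26.3% and 10.2%), so the order cannot single out a list. The part of the 3 kinds of cells in the Il6 and Il10 results was not tested.

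**Figure D3:**
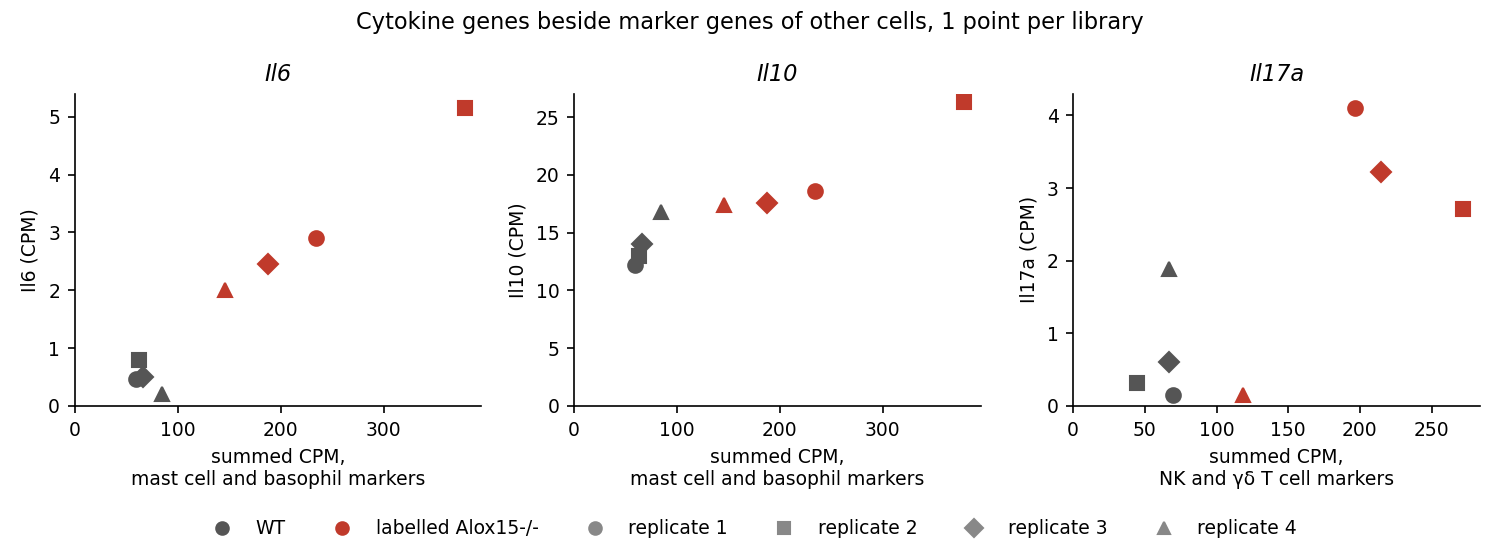
CPM of Il6, Il10 and Il17a (y axes) against the summed CPM of marker genes of mast cells and basophils or of natural killer and γδ T cells (x axes), one point per library, grey for WT and red for the Alox15-/- label. The library with the highest mast cell and basophil sum, 379 CPM, also has the most Il6, 5.16 CPM, and the most Il10, 26.3 CPM. That library also has the highest myeloid and eosinophil sums, 344 and 78.4 CPM.

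Il2 encodes the T cell growth factor that FOXP3 represses. It stood at 73.1, 33.7, 76.8 and 67.0 CPM in the libraries labelled Alox15-/- and at 43.1, 39.6, 31.9 and 288 CPM in the WT libraries. Of the former, 3 lay above 3 of the latter, and WT replicate 4 lay above all others at 7.29 times the median of the other WT libraries. With all 8 libraries the means were 62.7 ± 19.8 and 101 ± 125 CPM, and the log2 difference of -0.65 (SE 0.55, 95% interval -1.83 to 0.53) did not pass (edgeR quasi-likelihood, adjusted p = 0.838). Without WT replicate 4 the WT mean was 38.2 ± 5.75 CPM (n = 3) and the difference turned to 0.73 (SE 0.21), which did not pass either (edgeR, adjusted p = 0.131). Il2 (chr3:37120523-37125959, minus strand) overlaps Adad1 on the other strand, which had 2 to 13 reads per library.

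Tnf, a neighbour of Lta in the class III region of the major histocompatibility complex, encodes the inflammatory cytokine TNF. Its levels were 61.6, 28.2, 46.1 and 55.8 CPM in the libraries labelled Alox15-/- and 42.2, 31.6, 34.8 and 136 CPM in the WT libraries. The groups overlapped, and WT replicate 4 again lay highest, at 3.91 times the median of the other WT libraries. The log2 difference was -0.32 (SE 0.38, 95% interval -1.13 to 0.50, edgeR adjusted p = 0.889) with it and 0.42 (SE 0.19, edgeR adjusted p = 0.574) without it. Across the 8 libraries Il2 and Tnf had a Pearson correlation of 0.97 in log2 CPM, and 0.88 over the 7 without WT replicate 4. The ratio of Il2 to Tnf was 1.19, 1.19, 1.66 and 1.20 in the libraries labelled Alox15-/- and 1.02, 1.25, 0.916 and 2.12 in the WT libraries.

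Lta encodes lymphotoxin-α, a TNF relative needed for lymphoid organ development, and ends 1157 bases upstream of the start of Tnf on the same strand (Tnf chr17:35199381-35202007, Lta chr17:35203165-35205351). It was at 409.6, 338, 371 and 372 CPM in the libraries labelled Alox15-/- and at 454, 393, 404 and 507 CPM in the WT libraries. The ranges overlapped through replicate 1 labelled Alox15-/-, and the other 3 lay below every WT library. The means were 373 ± 29.3 and 439.6 ± 52.5 CPM, with a log2 difference of -0.24 (SE 0.10, 95% interval -0.46 to -0.01, edgeR adjusted p = 0.603). It was -0.16 without WT replicate 4. In spite of the short distance, Tnf relative to Lta varied from 0.0803 to 0.269 between libraries, both extremes being WT libraries.

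**Figure D4:**
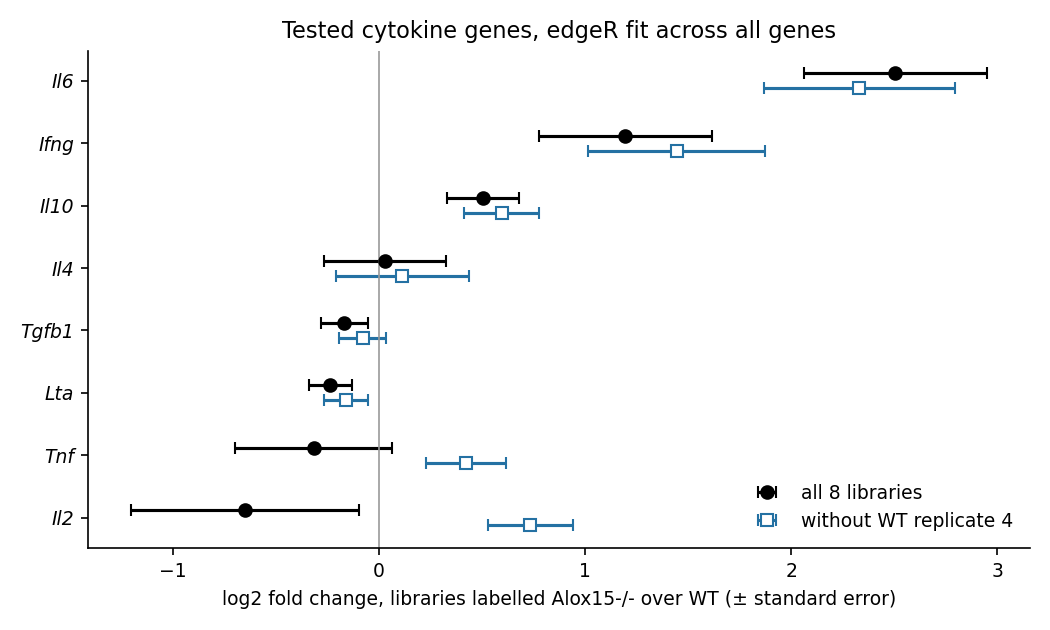
Log2 fold change of the 8 tested cytokine genes, libraries labelled Alox15-/- over WT, with standard errors, in all 8 libraries (black) and without WT replicate 4 (open blue). Il2 moves from -0.65 to 0.73 and Tnf from -0.32 to 0.42, while Il6 stays at 2.33 or above.

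Ifng encodes the Th1 cytokine IFN-γ, also made by natural killer and γδ T cells. Its levels were 21.7, 10.6, 9.46 and 5.18 CPM in the libraries labelled Alox15-/- and 4.55, 6.57, 2.02 and 7.76 CPM in the WT libraries. Of the former, 3 lay above all WT libraries, while replicate 4 labelled Alox15-/- lay between WT replicates 1 and 2. The means of 11.7 ± 7.05 and 5.22 ± 2.52 CPM gave a log2 difference of 1.19 (SE 0.42, 95% interval 0.30 to 2.09) that did not pass the threshold (edgeR quasi-likelihood, adjusted p = 0.385). It was 0.71 without replicate 1 labelled Alox15-/- and 1.44 without WT replicate 4. The replicate 4 labelled Alox15-/- also had the lowest sum of natural killer and γδ T cell markers under that label, 119 CPM against 197, 272 and 215 CPM. It was lowest there for erythroid, myeloid, mast cell and basophil, and eosinophil markers as well (919.7, 45.6, 146 and 21.7 CPM). The other libraries of that label did not follow, since replicate 1, with the most Ifng, had 197 CPM, below replicates 2 and 3. All 16 genes of that list were listed, 7 were higher in every library labelled Alox15-/- than in any WT library (2.74% of all genes tested, no comparison where a gene was low in WT), and the part of these cells in the Ifng values was not tested.

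Il17a encodes the Th17 cytokine IL-17A, likewise a product of γδ T cells. Raw counts were 17, 10, 17 and 1 in the libraries labelled Alox15-/- and 1, 2, 6 and 9 in the WT libraries. These gave 4.10, 2.71, 3.21 and 0.144 CPM against 0.157, 0.320, 0.605 and 1.89 CPM. As for Ifng, 3 libraries labelled Alox15-/- lay above all WT libraries, but here replicate 4 lay below all of them. The means of 2.54 ± 1.70 and 0.743 ± 0.786 CPM did not differ at the 0.05 level in a two-sided exact permutation test (p = 0.143). Il17a reached 2 CPM in 3 libraries and so was outside the genes tested.

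Il4 and Il13 encode the Th2 cytokines and lie 12654 bases apart on chromosome 11 (Il4 chr11:53602982-53618669, Il13 chr11:53631324-53634702, both minus strand), 16.7 Mb from Alox15. Il4 had 1.69, 3.53, 3.03 and 3.02 CPM in the libraries labelled Alox15-/- and 2.19, 3.04, 2.62 and 3.36 CPM in the WT libraries. These overlapped throughout, with a log2 difference of 0.03 (SE 0.30, 95% interval -0.61 to 0.66, edgeR adjusted p = 0.993), and their spread was close to what counting error gives. Il13 had 4, 1, 2 and 3 reads against 4, 1, 1 and 13, where the 13 reads belonged to WT replicate 4. Its means of 0.512 ± 0.310 and 0.904 ± 1.24 CPM gave p = 0.8 in the exact permutation test, on 10 reads against 19. The coefficient of variation of the WT libraries, 137%, was above the 45.9% that counting error gives.

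Tgfb1 encodes TGF-β1, secreted as a latent complex that FURIN cleaves and LRRC32 anchors on Tregs. It was at 337, 328, 416 and 314 CPM in the libraries labelled Alox15-/- and at 354, 389, 367 and 459 CPM in the WT libraries. The groups overlapped through replicate 3 labelled Alox15-/-. The means were 349 ± 45.9 and 392 ± 46.8 CPM, a log2 difference of -0.17 (SE 0.11, 95% interval -0.41 to 0.08, edgeR adjusted p = 0.782). Without WT replicate 4, the highest library, it was -0.08 (edgeR adjusted p = 0.899). Of 11 genes for the processing, anchoring and release of latent TGF-β, 5 were tested and 0 passed, with a median log2 difference of -0.12 and 1 gene at an unadjusted p under 0.05 (1.24% and 7.84% of all genes). The latter was Lrrc32 itself, at 29.2 ± 3.41 against 40.0 ± 10.98 CPM (log2 difference -0.46, SE 0.17, edgeR adjusted p = 0.455). Furin stood at 194 ± 36.2 against 211 ± 51.9 CPM, and Nrros, another anchor of latent TGF-β, at 36.6 ± 5.86 against 38.7 ± 8.17 CPM.

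The other cytokine genes gave no call with edgeR's quasi-likelihood test after the filter. Of 50 in 4 lists, 45 were in the table, 19 were tested and 0 passed in either direction, with 4 at an unadjusted p under 0.05, beside 1.24% and 7.84% of all genes. By the likelihood-ratio test of edgeR and by DESeq2, 1 of them, Il9, passed (adjusted p = 0.0241 and 0.0199), and when no filter was applied so did Il9 (adjusted p = 0.00167) and Il21 (adjusted p = 0.0311). Il9, which encodes a growth factor for mast cells and is induced in T cells by TGF-β with IL-4, stood at 178 ± 34.9 against 123 ± 15.8 CPM. Its groups did not overlap, and the log2 difference was 0.53 (SE 0.14, edgeR quasi-likelihood, adjusted p = 0.101). Of the most abundant genes in these lists, Mif (719 ± 90.6 against 610.2 ± 56.6 CPM), Ltb (249 ± 4.95 against 238 ± 24.3 CPM), Tnfsf8 (194 ± 60.2 against 188 ± 40.7 CPM) and Il16 (176 ± 14.3 against 166 ± 16.5 CPM) overlapped between the labels. So did Lif (50.6 ± 13.8 against 57.6 ± 13.2 CPM), Ebi3 (18.9 ± 5.04 against 20.8 ± 8.40 CPM) and Il24 (7.91 ± 5.40 against 3.87 ± 1.85 CPM).

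The high levels in WT replicate 4 reached beyond Il2 and Tnf. It was the highest library in 9 of the 19 other tested cytokine genes (47.4%) and in 14 of the 29 tested transcription factors that control cytokine genes (48.3%), beside 17.9% of all genes. The share was nearer to that of all genes for cytokine receptors (18.8%), target and feedback genes (21.1%), RNA-binding proteins (28.6%) and transducers (31.8%). Fasl, the ligand of the death receptor FAS, was at 13.2 CPM there, 8.26 times the median of the other WT libraries. Il17f stood 7.21 times, Tnfsf9 (the ligand of 4-1BB) 5.07 times and Tnfsf14 (LIGHT) 4.56 times above that median. Some transcription factor genes of the cytokine list, picked after their values were seen, were also high. Nr4a1 was at 419 CPM in WT replicate 4 and at 131 to 153 CPM in the other WT libraries, and Egr1 was at 219 against 53.4 to 73.9 CPM. Egr2 and Egr3 stood 3.12 and 3.36 times, and Fosb 6.55 times, above the median of the other WT libraries. Others of that list were not, with Jun and Jund at 0.99 and 1.02 times that median. Il24 went the other way, at 0.287 times that median. Without WT replicate 4, Il17f was called higher in the libraries labelled Alox15-/- (log2 difference 1.73, edgeR adjusted p = 0.0327), having been at 0.51 (SE 0.59, adjusted p = 0.884) with it. The other WT libraries were all under 2 CPM, so in that fit Il17f was kept through the group in which it was high.

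**Figure D5:**
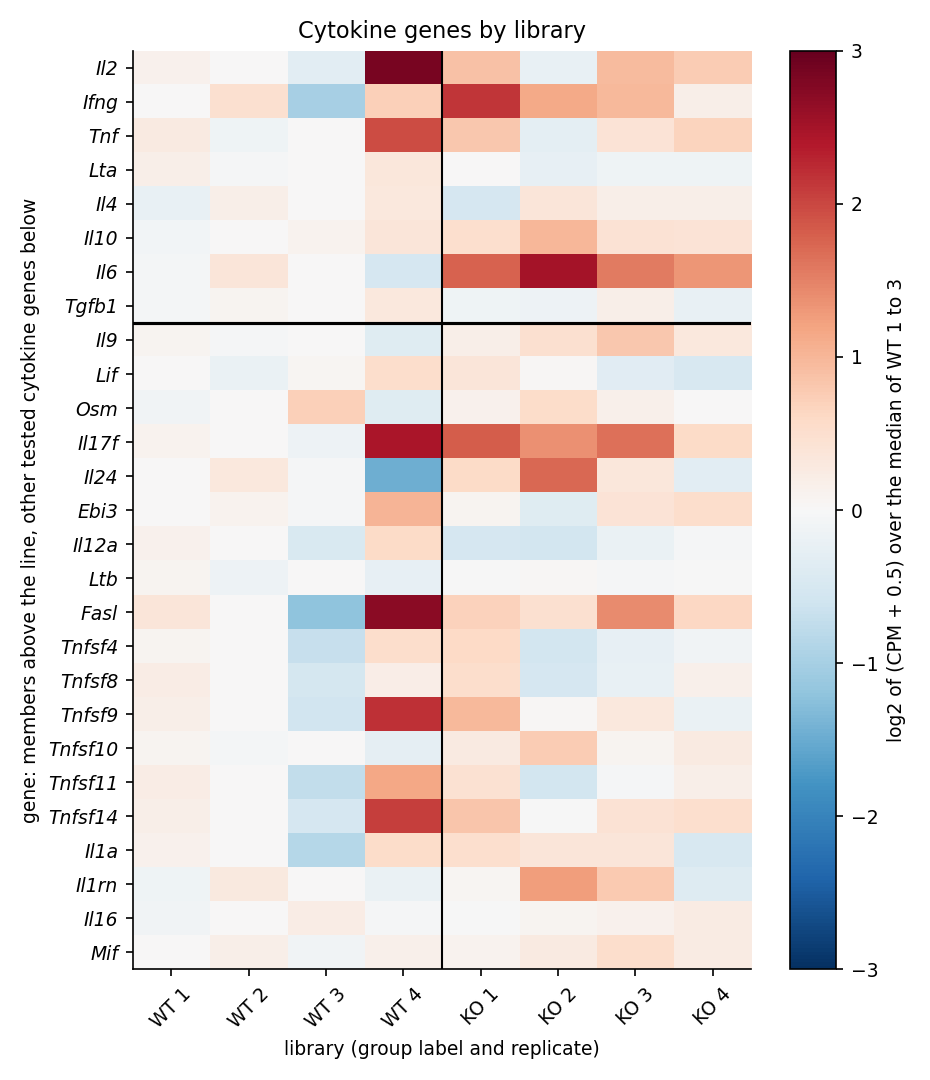
Log2 of CPM plus 0.5 of each tested cytokine gene relative to the median of WT replicates 1 to 3 (color, red above and blue below), with the cytokine genes described first above the horizontal line and the other tested cytokine genes below it. The WT 4 column is red for Il2, Tnf, Il17f, Fasl, Tnfsf9 and Tnfsf14, and the 4 columns of the Alox15-/- label (KO) are red for Il6.

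Receptors and transducers gave no call, where 1.24% of all genes tested passed. Of the 21 receptor chains, 16 were tested and 0 passed, with a median log2 difference of 0.08. Il2ra, the chain that gives Tregs their high affinity for IL-2, was at 768 ± 82.1 against 833.5 ± 55.4 CPM and Il2rb at 167 ± 22.7 against 189 ± 20.3 CPM. All 22 transducers of the JAK, STAT, SMAD and NF-κB families were tested and 0 passed, with Nfkb1 at 321 ± 53.4 against 374 ± 73.1 CPM. Beside each of these counts of 0, edgeR's test gave 2 receptor chains and 1 transducer at an unadjusted p under 0.05, as for 7.84% of all genes.

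Of 23 target and feedback genes, 19 were tested, 2 rose and 0 fell, with 7 at an unadjusted p under 0.05, beside 1.24% of all genes called and 7.84% at that unadjusted p. The number called ran from 1 to 5 over the alternatives. Itgae encodes the integrin chain CD103, which TGF-β induces and which also marks Tregs. It was at 44.7, 36.1, 31.2 and 21.7 CPM in the libraries labelled Alox15-/- and at 14.6, 13.8, 16.7 and 14.3 CPM in the WT libraries, a log2 difference of 1.15 (SE 0.19, edgeR adjusted p = 0.0042). Gbp2, a guanylate-binding protein gene induced by IFN-γ, was at 243, 291, 219 and 147 CPM against 132, 145, 114 and 95.5 CPM, a log2 difference of 0.88 (SE 0.18, edgeR adjusted p = 0.0171). In both genes every library labelled Alox15-/- lay above every WT library. Itgae passed in all 8 fits without 1 library. Gbp2 did not pass in edgeR's robust fit, and passed in 4 of the fits without 1 library and not without replicate 1, 2 or 3 labelled Alox15-/- or WT replicate 1 (edgeR adjusted p from 0.0527 to 0.0674). Cxcl10, a chemokine gene induced by IFN-γ, did not pass (log2 difference 1.58, edgeR quasi-likelihood, adjusted p = 0.104), though it did by edgeR's likelihood-ratio test (adjusted p = 0.00874), without a filter (0.0169) and without WT replicate 4 (0.0289) or replicate 4 labelled Alox15-/- (0.0344). Cxcl10 was at 3.38, 4.61, 4.35 and 1.87 CPM in the libraries labelled Alox15-/-, and of the WT libraries only replicate 4 reached 2 CPM. Without WT replicate 4 the filter applied anew would have left Cxcl10 out, and it was in that fit because the tested genes were held. The IL-2 target Cish was at 347 ± 13.4 against 427 ± 46.7 CPM, lower in every library labelled Alox15-/-, without passing (log2 difference -0.30, edgeR adjusted p = 0.300). Pmepa1, a TGF-β target, was at 441 ± 51.5 against 414 ± 42.9 CPM.

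Among the 31 transcription factors of cytokine genes, 29 were tested and 0 passed, with 4 at an unadjusted p under 0.05 (1.24% and 7.84% of all genes) and a median log2 difference of -0.04. When no filter was applied, 6 of them were called lower in the libraries labelled Alox15-/-, namely Foxp3, Irf4, Nr4a1, Egr1, Egr3 and Fosb. All but Foxp3 were highest in WT replicate 4. The log2 difference of Foxp3 was nearly the same without the filter (-0.45, edgeR adjusted p = 0.0189) as with it (-0.42, edgeR adjusted p = 0.655). Its call therefore came with the change of fit, not with a larger difference. Irf4 was at 248 ± 52.0 against 324 ± 73.2 CPM and Junb at 270.5 ± 30.7 against 280.3 ± 85.3 CPM. The lineage factors Tbx21 and Gata3, of the Th1 and Th2 programs, differed on the log2 scale by 0.36 and -0.34, with edgeR adjusted p-values of 0.869 and 0.518. Of the 14 RNA-binding proteins that bind AU-rich or stem-loop elements, all were tested and 0 passed, with 1 at an unadjusted p under 0.05, beside the same shares of all genes. The most abundant were Khsrp (263.5 ± 14.5 against 256 ± 38.2 CPM) and Hnrnpd (223 ± 15.5 against 247 ± 17.6 CPM).

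For each tested cytokine gene, the genes with the most similar pattern over the 8 libraries were found by the Pearson correlation of log2 CPM. These values describe 8 libraries that share depth and label differences. Il6 was closest to Mlkl (0.98) and to Hdc (0.98), which encodes histidine decarboxylase and belongs to the mast cell and basophil list. Il10 was closest to Emilin2 and Isg20 (both 0.96), and Ifng to Cblb (0.97) and Nxn (0.94). Il2 was closest to Pef1 and A430093F15Rik (both 0.98), and Tnf to Sp6 and Sh2d2a (both 0.98). Lta was closest to Sde2 and Prosc (both 0.98), Tgfb1 to Gorasp2 and Pgrmc2 (both 0.96), and Il4 to Xab2 (0.96) and Zfp963 (0.94). Between the cytokine genes, Il10 and Il6 correlated at 0.79, and at 0.95 without WT replicate 4, whereas Lta and Il6 correlated at -0.84.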

How the data were processed

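The authors profiled RNA by MACE-seq and deposited, as raw counts, the reads on each gene symbol in 4 libraries per label. The submitters' processing notes name Bowtie, edgeR and GRCm38, without roles or versions. The counting tool, annotation, strand setting and treatment of duplicates are not given in the sources used here, so reads of overlapping genes cannot be told apart. The methods name a MACE kit, the labels a small RNA kit. Of the 28239 symbols, 26 have the form of a date.

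CPM were scaled by TMM, and genes at 2 CPM or more in 4 libraries, before scaling, were compared with edgeR 4.0.16 (R 4.3.3) by the quasi-likelihood test, group as the only term, two-sided, with Benjamini–Hochberg adjustment and a threshold of 0.05. Marker sums and the 2 untested members were compared by two-sided exact permutation tests over 70 splits (scipy 1.17.1). The fits were tested on simulated data. Promoters are from RefSeq, and other positions from GENCODE on GRCm38. Named genes are the 10 members, list genes past the threshold, the 2 most abundant of each list and the 2 closest in pattern to each member. Lineage factors, Cxcl10, Lrrc32, Jun, Jund and the genes high in WT replicate 4 were added after their values were seen. Some list genes are not reported here. The members and lists were chosen with earlier results of these data known. Alternatives were other scalings, filters and tests (DESeq2 1.42.0, limma 3.58.1), the replicate number as a block, and each library left out with the tested genes held.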

Additional observations from a re-analysis of the deposited data

Results flagged for a closer look

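In 3 of the 20 groups examined (10 cytokine genes, 2 labels), 1 library lay farther from the other 3 than Dixon's 95% critical value allows, where chance gives about 1 in 20 groups. The level of Il2 in WT replicate 4 was 288 CPM (ratio of gap to range 0.956), and that of Tnf in the same library was 136 CPM (0.898). The level of Il10 in replicate 2 labelled Alox15-/- was 26.3 CPM (0.868). The first 2 flags fall in the same library and in genes whose levels moved together.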

How the results depend on the processing

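Of the 12700 genes tested, 158 were called. Without a filter 388 of all symbols were called, the other alternatives gave 140 to 224, and leaving out 1 library gave 106 to 179. Among the cytokine genes 1 was called, Il6, under every alternative but the absence of a filter, which gave 4: Il6, Ifng and Il17a higher (adjusted p = 9.68e-05, 0.000187 and 0.0386) and Il2 lower (log2 difference -0.67, adjusted p = 1.67e-05). With the filter, Il2 had nearly the same log2 difference, -0.65, at an edgeR adjusted p of 0.838. The fit without a filter also called 6 transcription factors of cytokine genes lower, against 0 with the filter, and 5 target genes higher, against 2. It called the other cytokine genes Il9 and Il21 higher, against 0. Over the 17 alternatives the adjusted p of Il6 ran from 6.0e-06 to 0.0347. All of these fits rest on the same 58 reads against 14, or on part of them. Il6 was kept in the fits without 1 library labelled Alox15-/- only because the tested genes were held. The log2 difference of Il2 turned to 0.0295 under limma-voom and ranged from -0.95 to 0.73 when 1 library was left out, and DESeq2 gave it no adjusted p. Tnf ranged from -0.53 to 0.42 and Il4 from -0.069 to 0.19 in the same way, each without passing. The cause of these turns was not tested, beyond WT replicate 4 being the library whose absence turned Il2 and Tnf. Ifng, Lta, Il10, Il6 and Tgfb1 kept their direction throughout. Leaving out 1 library changed the sign of the difference in mean CPM of Il13 (-0.66 to 0.22) but not of Il17a (1.28 to 2.60).

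Same-numbered libraries of the 2 labels did not deviate together (correlations from -0.18 to 0.17, and 3 of 8 libraries correlated best with their own number), so the numbers were not taken as pairs. With the replicate number as a block, 146 genes were called, 1 of them a cytokine gene, Il6 (log2 difference 2.57, adjusted p = 0.00404). The call of no other cytokine gene changed under the block. Among the other genes of the lists, Gata3 passed without replicate 1 labelled Alox15-/- (log2 difference -0.51, adjusted p = 0.0385), Cxcl10 without replicate 4 of that label (adjusted p = 0.0344) and Socs3 without WT replicate 3 (adjusted p = 0.00559). On all 8 libraries Socs3 also passed by DESeq2 (0.0432), the likelihood-ratio test (0.0340) and without a filter (0.00544).

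Depth limits Il13, Il17a, Il6 and Il4, with 10 to 75 reads per label.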
